A study of Mus musculus with 16 samples.

Results

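Markers of the endothelium, the cell layer that lines blood vessels, were followed in mouse aorta and liver: 31 genes of the 24011 in the deposited table. They were chosen by name, with earlier results of these data known. The set holds 22 general endothelial markers and 9 markers of liver sinusoidal endothelium, and all 31 were found in the table.

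The tissue came from wild-type female C57BL/6 mice, ovariectomized when 6 to 7 weeks old and sampled 1 week after surgery, so that every group lacked its ovaries. Whole aortas, or pieces of the large liver lobe cut at its tip, were held for 4 h at body temperature in DMEM, a culture medium. The medium held 10 nM 17b-estradiol (E2, a natural estrogen of the ovary) or its ethanol vehicle. This gave 4 groups of 4 libraries: vehicle aorta, E2 aorta, vehicle liver and E2 liver. Per the labels, 8 libraries were made from 50 ng of RNA with an Ovation kit, on a pair of sequencing instruments, and 8 with a TruSeq kit after selection of poly-A RNA, from 600 ng taken from 1 aorta or liver fragment. The series text describes each replicate as tissue of 4 mice, which does not cover libraries from 1 aorta. The count columns carry the endings o1, o2, n1 and n2, which the labels do not explain, and these endings name the libraries below. Whether libraries of a group share animals is not stated for every library, so p-values measure the spread between libraries.

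Counts assigned to genes ranged from 3896733 (E2 liver n2) to 19823982 (vehicle aorta o2) per library. Reads outside genes made up 48.0% to 75.2% of the counted reads. A ribosomal RNA transcript, Rn45s, held 25.7% to 34.5% of gene counts in the 4 liver o libraries and at most 6.20% elsewhere. The tissues matched their labels: summed CPM (counts per 1000000 gene counts on scaled library sizes) of 10 hepatocyte markers were 76262 to 131496 in vehicle liver and 105 to 615 in vehicle aorta, and those of 10 smooth muscle markers were 462 to 590.0 and 11451 to 18634. No marker of either list was at 0 throughout a tissue. The vehicle aortas also carried fat markers at 2177 to 4259 CPM in sum over 8 genes, against 75.5 to 282 in vehicle liver.

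Endothelial cells are joined by adhesion proteins such as VE-cadherin (Cdh5) and PECAM-1 (Pecam1), and sealed by claudin-5 (Cldn5). They grow and survive on vascular endothelial growth factors and angiopoietins. The receptor tyrosine kinases Kdr, Flt1, Flt4, Tek and Tie1 belong to these pathways. Endothelial identity is held by transcription factors of the ETS (Erg) and SOX (Sox7, Sox17, Sox18) families. The aorta is lined by a continuous, tight endothelium. Liver sinusoids are lined by a perforated, scavenging endothelium that takes up waste molecules from the blood through receptors such as the stabilins (Stab1, Stab2), the hyaluronan receptor LYVE-1 (Lyve1) and the inhibitory Fc receptor Fcgr2b. Estradiol acts on endothelium through its receptor, and the study asked how its effects differ between aorta and liver.

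All 9 sinusoidal markers were lower in vehicle aorta than in vehicle liver, by -2.49 (Stab1) to -9.71 (Clec4g) on the log2 scale, and all 9 passed the test (edgeR quasi-likelihood test, Benjamini-Hochberg adjusted, adjusted p under 0.05 and an absolute log2 difference over 1, 4 against 4 libraries). Lower calls made up 23.4% of the 12607 genes tested. Clec4g, Oit3 and Dnase1l3, too low to test within aorta, passed the count filter here only through their liver counts. Their calls could hardly have gone the other way. The median log2 difference was -5.97 over the 9 sinusoidal members, 0.13 over the 22 general members and 0.054 over all genes tested. The general median ran from -0.021 without vehicle aorta n2 to 0.40 without vehicle liver o2, so its sign was not fixed. In bulk tissue, fewer cells of a type and less RNA per cell cannot be told apart.

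Clec4g, a C-type lectin of liver sinusoids, showed the widest gap. Vehicle livers held 158 (o1), 229 (o2), 225 (n1) and 254 (n2) CPM. Vehicle aortas held 0.170 (o1), 0.534 (o2), 0.12 (n1) and 0.235 (n2) CPM, which rest on 18 counts in all against 5643 in liver. Every liver library lay far above every aorta library, and the fitted difference was -9.71 ± 0.49 (SE; adjusted p = 4.68e-08, edgeR quasi-likelihood test, Benjamini-Hochberg adjusted). Stab2, a scavenger receptor for hyaluronan, measured 1082 (o1), 974 (o2), 167 (n1) and 159 (n2) CPM in vehicle livers and 2.89, 4.03, 0.757 and 3.53 CPM in the aortas, in the same order. The liver o libraries exceeded the liver n libraries by several fold, yet the tissues did not overlap, and the log2 difference was -7.28 ± 0.62 (SE).

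The bases just upstream of the RefSeq start sites of 3 members with higher liver counts are printed here, to show the promoters of genes that differ between the tissues: Clec4g and Stab2 from the sinusoidal list and Robo4 from the general list. They come from the RefSeq promoter table for GRCm38.p6, 250 bases each, read 5′ to 3′ on the gene's strand. Capitals mark matches, on either strand, to the ETS motifs CAGGAAG and CCGGAAG, the GATA motif AGATAA, the SOX motif ACAAT or AGGTCA, the repeat unit of an estrogen response element.
Clec4g (chr8:3720652-3720901, - strand): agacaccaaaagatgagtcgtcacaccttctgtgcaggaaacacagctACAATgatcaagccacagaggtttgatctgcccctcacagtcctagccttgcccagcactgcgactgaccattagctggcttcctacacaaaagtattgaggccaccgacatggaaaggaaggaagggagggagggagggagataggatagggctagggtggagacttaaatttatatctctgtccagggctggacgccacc
Stab2 (chr10:87007943-87008192, - strand): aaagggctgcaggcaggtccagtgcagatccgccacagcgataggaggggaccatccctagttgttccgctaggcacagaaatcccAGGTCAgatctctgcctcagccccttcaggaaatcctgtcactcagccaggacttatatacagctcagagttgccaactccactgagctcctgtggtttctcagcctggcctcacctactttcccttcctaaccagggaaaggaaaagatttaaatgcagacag
Robo4 (chr9:37401722-37401971, + strand): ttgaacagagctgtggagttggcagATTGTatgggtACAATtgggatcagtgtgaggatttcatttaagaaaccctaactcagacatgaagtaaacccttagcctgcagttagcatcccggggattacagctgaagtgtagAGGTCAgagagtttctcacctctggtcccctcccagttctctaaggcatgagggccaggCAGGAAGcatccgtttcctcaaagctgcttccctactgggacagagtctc
The Clec4g window held ACAAT 202 bases upstream of the start site on the + strand. The Stab2 window held AGGTCA 164 bases upstream of the start site on the + strand. The Robo4 window held ACAAT 225 bases upstream of the start site on the - strand, ACAAT 214 bases upstream of the start site on the + strand, AGGTCA 109 bases upstream of the start site on the + strand and CAGGAAG 50 bases upstream of the start site on the + strand. The table held a promoter for 15 of the 31 members, in 19 windows. CAGGAAG occurred in 6 of the 19 member windows, those of Egfl7, Emcn, Erg, Robo4, Stab1, against 10.8% of all 32536 windows of the same length, and CCGGAAG in none, against 6.95%. AGATAA was in 1 member window, of Erg (9.97% of all windows), ACAAT in 6 (27.4%) and AGGTCA in 6 (14.0%), of both general and sinusoidal genes. These are matches of letters, described without a test.

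Oit3, a secreted protein of liver endothelium, measured 203, 219, 78.1 and 117 CPM in vehicle liver (o1, o2, n1, n2, the order kept from here on) and 0.341, 0.291, 0.438 and 0.392 CPM in vehicle aorta. Dnase1l3, a secreted DNase, measured 177, 198, 75.3 and 102 CPM in liver and 0.170, 0.922, 0.12 and 1.25 CPM in aorta. The aortic values of both rest on few counts, 24 for Oit3 and 39 for Dnase1l3 over 4 libraries, and no aorta reached the level of any liver. Gpr182, an atypical receptor of sinusoidal and lymphatic endothelium, measured 144, 201, 151 and 165 CPM in liver and 1.19, 4.56, 1.31 and 4.23 CPM in aorta. It was among the steadiest sinusoidal members across o and n libraries of the liver.

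Fcgr2b measured 26.2, 31.5, 85.0 and 95.5 CPM in vehicle liver and 0.511, 1.75, 3.98 and 5.10 CPM in vehicle aorta. Lyve1 measured 50.2, 62.7, 6.95 and 32.8 CPM in liver and 2.21, 5.78, 4.58 and 2.20 CPM in aorta, and Flt4, the VEGF-C receptor shared with lymphatic vessels, 79.3, 68.4, 44.7 and 56.5 and 4.43, 2.33, 7.41 and 8.08 CPM. For these 3 genes the lowest liver library still exceeded the highest aorta library, by a narrow margin for Lyve1. Stab1, also made by some macrophages, measured 129, 103, 399 and 372 CPM in liver and 14.0, 16.9, 82.7 and 103 CPM in aorta. It was the 1 sinusoidal member whose groups met: the highest aorta library, n2, stood beside the lowest liver library, o2, and within either letter the liver was higher.

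With E2 in the medium the same 9 members were called lower in aorta, from -2.34 (Stab1) to -10.78 (Clec4g), where lower calls made up 22% of 13061 genes. The filter limit for Clec4g, Oit3 and Dnase1l3 applied here too. The vehicle comparison does not use the E2 libraries. In aorta, however, vehicle and E2 libraries of the same ending correlated, so this was not shown to be an independent repeat. Fitted in o libraries alone, the vehicle differences ran from -2.90 (Stab1) to -9.39 (Oit3), and in n libraries alone from -2.20 (Stab1) to -10.59 (Clec4g). The mean log2(CPM + 1) of the 9 sinusoidal members lay 1.75 from the mean of the 22 general members in vehicle liver, that is above it, and -3.19 from it, below, in vehicle aorta. Markers of liver macrophages, which share Clec4f and Mrc1 with further sinusoidal genes, summed to 525 to 1784 CPM in vehicle liver and 214 to 337 in vehicle aorta, with no marker at 0 throughout either tissue. Their part in the level of members that macrophages also make, such as Stab1 and Fcgr2b, was not tested.

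**Figure D1:**
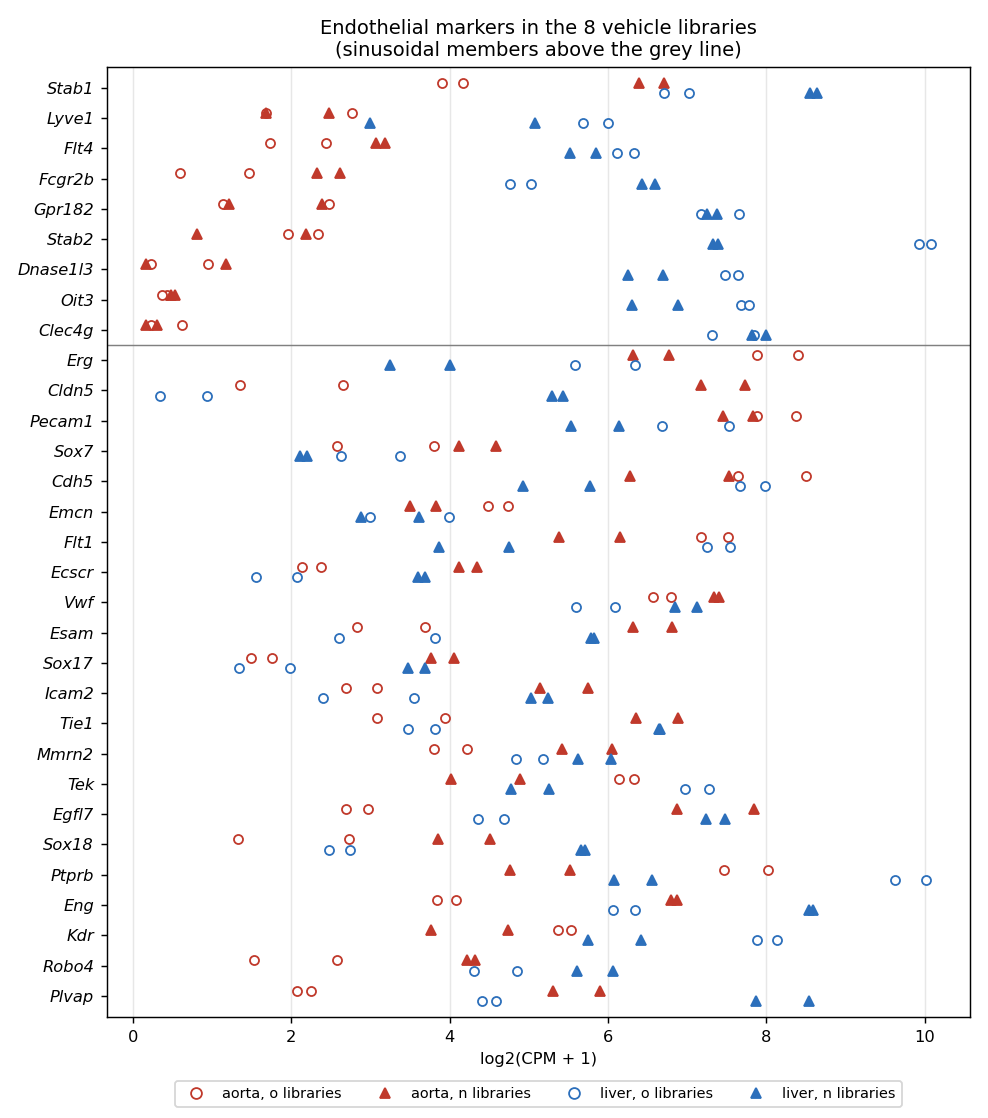
The 31 members in the 8 vehicle libraries, as log2(CPM + 1) on the x axis, 1 row per gene, with 1 symbol per library (red aorta, blue liver; open circles o, filled triangles n). The sinusoidal members, above the grey line, have their liver symbols to the right of their aorta symbols, except that Stab1 in aorta n libraries (82.7 and 103 CPM) comes close to liver o libraries.

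The general endothelial markers did not move as 1 block between the tissues. In vehicle libraries 4 of 22 were called higher in aorta, Erg (2.56), Cldn5 (2.03), Pecam1 (1.39) and Sox7 (1.31), 6 were called lower, and 12 did not pass the test. Higher calls made up 24.1% of all genes tested, lower calls 23.4%, and calls in either direction 47.5%, against 10 of 22 for the general members. The 6 lower in aorta were Plvap (-2.67), the protein of the diaphragms that bridge endothelial pores, Robo4 (-2.26), a guidance receptor, Kdr (-2.24), the main VEGF-A receptor, Eng (-2.05), a coreceptor for BMP9, Ptprb (-1.65), the phosphatase acting on Tek, and Sox18 (-1.26).

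Erg, an ETS factor that keeps endothelial genes on, measured 234 (o1), 335 (o2), 108 (n1) and 79.0 (n2) CPM in vehicle aorta and 80.1, 47.0, 8.45 and 15 CPM in vehicle liver. Within o and within n libraries every aorta exceeded every liver, although the lowest aorta library, n2, stood just below the highest liver library, o1. The log2 difference was 2.56 ± 0.36 (SE; adjusted p = 9.58e-05, edgeR quasi-likelihood test, Benjamini-Hochberg adjusted), 2.19 in o libraries alone and 2.84 in n libraries alone. Pecam1 measured 234, 332, 226 and 173 CPM in aorta and 101, 184, 45.2 and 69.5 CPM in liver, with the highest liver library, o2, above the lowest aorta library, n2. Its log2 difference was 1.39 ± 0.30 (SE), 1.02 in o libraries and 1.65 in n libraries.

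Cldn5 measured 5.28, 1.55, 143 and 211 CPM in vehicle aorta and 0.267, 0.914, 38.1 and 42.3 CPM in vehicle liver, so that the o libraries of both tissues were near the bottom and the n libraries far above them. Its tissue difference was 2.03 ± 0.41 (SE), 1.99 in n libraries alone and 2.01 in o libraries alone, where the liver values rest on 1 and 9 counts. In o libraries alone its SE was 1.06 and the call was lost (adjusted p = 0.129, edgeR quasi-likelihood test, Benjamini-Hochberg adjusted). Sox7, a SOX factor of early endothelium, measured 12.9, 4.95, 23.0 and 16.4 CPM in aorta and 9.34, 5.18, 3.57 and 3.33 CPM in liver. Its call rested on the n libraries: the log2 difference was 0.19 in o and 2.37 in n libraries. The adjusted p for Sox7 was 0.0485, and 0.0582 with the library ending as a replicate block, in the edgeR quasi-likelihood test, Benjamini-Hochberg adjusted, so its call was lost there, as it was without any 1 of the 4 n libraries (46.4% of genes were called with the block).

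With E2 present 6 general members were called higher in aorta (Erg 2.87, Pecam1 1.90, Sox7 1.49, Cdh5 1.33, Vwf 1.04 and Emcn 1.02) and 5 lower (Plvap -2.79, Robo4 -2.28, Kdr -1.74, Eng -1.65 and Egfl7 -1.18). Background shares were 26.3% of genes higher, 22% lower and 48.3% in either direction. Called higher under both treatments were Erg, Pecam1 and Sox7, and called lower under both were Plvap, Robo4, Kdr and Eng. Cldn5 was called with vehicle but not with E2, where its log2 difference was 1.11 ± 0.43 (SE; adjusted p = 0.0548, edgeR quasi-likelihood test, Benjamini-Hochberg adjusted). Cdh5 measured 297, 219, 138 and 119.8 CPM in E2 aorta and 209, 196, 39.0 and 16.6 CPM in E2 liver. Its difference was 0.32 in o and 2.06 in n libraries. The Cdh5, Vwf and Emcn calls were lost with the ending as a block (adjusted p = 0.0532, 0.0634 and 0.0832, where 43.7% of genes were called), and those of Vwf and Emcn also with RLE normalization. The Cdh5 call was also lost without any 1 of the 4 n libraries (its difference was 0.84 without E2 liver n2), and the Sox7 call without E2 liver n1. Without E2 liver n1, E2 liver n2 or E2 aorta n2, 3 members were called higher.

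Counted without a model, none of the 31 members had all 4 vehicle aortas above all 4 vehicle livers, and 9 had them all below: Kdr and every sinusoidal member except Stab1. Over all 14190 genes 26.5% did not overlap in either direction. With E2, Pecam1 and Sox7 lay wholly above and 10 members wholly below (the 9 sinusoidal genes and Robo4), against 27.4% of genes. When o1, o2 and n were left out of the model as a covariate, 0 members were called higher and 9 lower with vehicle, and 0 and 8 with E2.

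**Figure D2:**
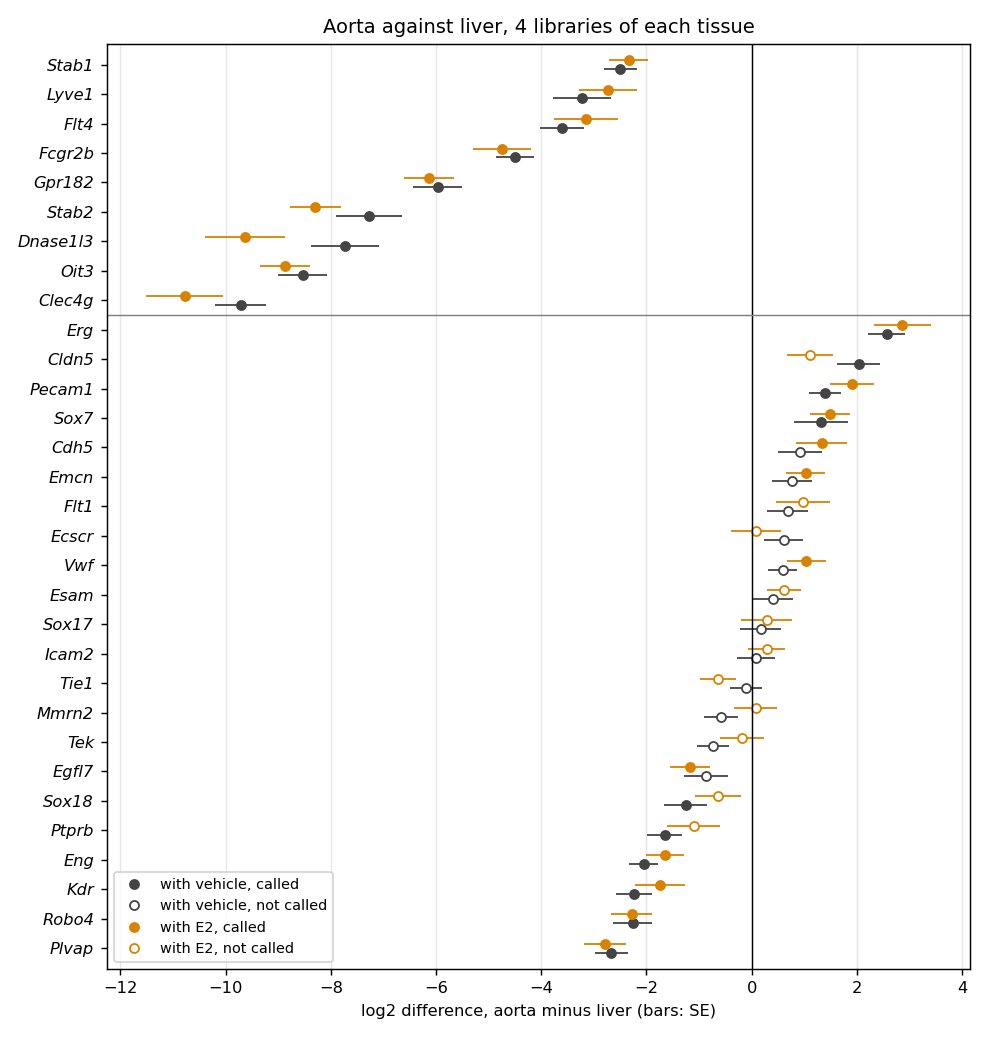
Log2 difference between aorta and liver for each member (x axis; points are edgeR estimates, bars are standard errors) with vehicle in grey and with E2 in orange, filled where the call was made. The sinusoidal members, above the line, lie between -10.78 and -2.34, and the general members between -2.79 and 2.87.

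Levels of different genes were compared as CPM per kilobase of the longest transcript. In vehicle aorta the highest members on this scale were Pecam1 (70.1 ± 19.2, SD, n = 4), Egfl7 (64.3 ± 76.7), a secreted endothelial factor, Cldn5 (63.7 ± 73.4), Erg (58.2 ± 36.4) and Cdh5 (51.2 ± 29.3). These 5 neighbours differed by less than their SD. Among o libraries the first places went to Erg (87.6) and Pecam1 (82.2), among n libraries to Cldn5 (125) and Egfl7 (124). The lowest were Oit3 (0.135 ± 0.0234) and Dnase1l3 (0.130 ± 0.118).

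In vehicle liver Clec4g led at 150.1 ± 28.4 CPM per kilobase (SD, n = 4), and it led by the mean of the o and of the n libraries. It did not lead in every library: Stab2 was above it in o1 (132 against 110) and Plvap in n1 (186 against 156). Plvap (81.3 ± 86.0), Stab2 (72.4 ± 61.0), Egfl7 (66.8 ± 59.3) and Eng (65.8 ± 51.4) followed, each closer to the next than its SD. Stab2 ranked 2 of 31 among liver o libraries and 14 among n libraries, and Plvap 18 and 2. Sox7 (1.62 ± 0.844) and Sox17 (2.04 ± 1.58) were lowest in liver.

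The members differed between o and n libraries of the same tissue by as much as general members did between tissues. In aorta 14 of the 28 members tested were higher in n libraries and 8 lower, and in liver 14 of 31 higher and 13 lower (8 libraries of each tissue, treatment in the model, same thresholds). These calls were 78.6% of the members tested in aorta and 87.1% in liver. As single libraries were left out, 14 to 16 members were higher and 6 to 7 lower in aorta. In liver 12 to 14 were higher and 12 to 13 lower. Over all genes 61% were called in aorta (33% higher and 28.1% lower) and 69.5% in liver (33.7% and 35.7%). Cldn5 had the widest difference, 5.73 ± 0.44 (SE) in aorta and 5.08 ± 0.42 in liver on the log2 scale. Egfl7 (4.25 in aorta, 2.65 in liver), Plvap (3.50, 3.71), Esam (3.23, 2.77), a junction molecule, and Tie1 (3.03, 2.57) followed in the same direction.

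The opposite direction was taken by Ptprb, which averaged 928 ± 168 CPM in the 4 liver o libraries and 63.2 ± 27.8 CPM in the 4 liver n libraries (SD). Its log2 difference was -4.01 ± 0.33 (SE) in liver and -2.75 ± 0.32 in aorta. Flt1 (-1.67 in aorta, -3.43 in liver), Erg (-1.72, -3.24), Tek (-1.96, -2.64), Kdr (-1.25, -2.27) and Cdh5 (-1.15, -2.74) were also lower in n libraries. Of the receptor genes Tek and Tie1, Tek was thus lower and Tie1 higher in n libraries of either tissue. Clec4g (0.13 ± 0.24, SE) and Gpr182 (-0.55 ± 0.27) did not pass the test in liver.

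These differences went with base composition. Spearman's rho between a member's n-minus-o difference and the GC content of its longest transcript was 0.773 over 28 members in aorta and 0.722 over 31 in liver, against 0.622 over 13624 genes and 0.559 over 11671 genes. With transcript length the rho was -0.579 and -0.543 over the members, -0.366 and -0.573 over all genes. These are correlations across genes that share the same libraries, given as a description. GC content of the longest transcript was 60.5% for Cldn5, 60.6% for Plvap and 58.5% for Egfl7, and 47.6% for Ptprb and 47.1% for Tek. The order was not strict: Fcgr2b, with 45.4%, was higher in n libraries (2.09 in aorta, 1.44 in liver), and Emcn had the lowest GC content, 41.5%, with -1.07 and -1.10.

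The central 150 coding bases of Cldn5 and Ptprb, the members with the highest and the lowest n-minus-o difference, are printed with G and C in capitals, to show their composition. They come from the longest protein-coding transcript in GENCODE M21, with positions counted from 1 at the A of the start codon.
Cldn5 (coding bases 253 to 402): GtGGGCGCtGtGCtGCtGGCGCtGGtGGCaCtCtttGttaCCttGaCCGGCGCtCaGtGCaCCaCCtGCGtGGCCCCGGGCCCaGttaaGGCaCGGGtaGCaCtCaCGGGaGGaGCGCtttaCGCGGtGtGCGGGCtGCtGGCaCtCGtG
Ptprb (coding bases 2923 to 3072): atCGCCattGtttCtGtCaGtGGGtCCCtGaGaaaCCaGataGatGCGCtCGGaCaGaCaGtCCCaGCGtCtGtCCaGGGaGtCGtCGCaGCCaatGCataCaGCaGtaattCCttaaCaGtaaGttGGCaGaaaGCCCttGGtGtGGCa
In these stretches G and C made up 67.3% of the bases of Cldn5 and 52.7% of those of Ptprb. Over the whole coding sequences they made up 64.1% of 654 bases and 50.9% of 5994 bases. Which step of library making or counting goes with the difference between o and n libraries was not tested.

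**Figure D3:**
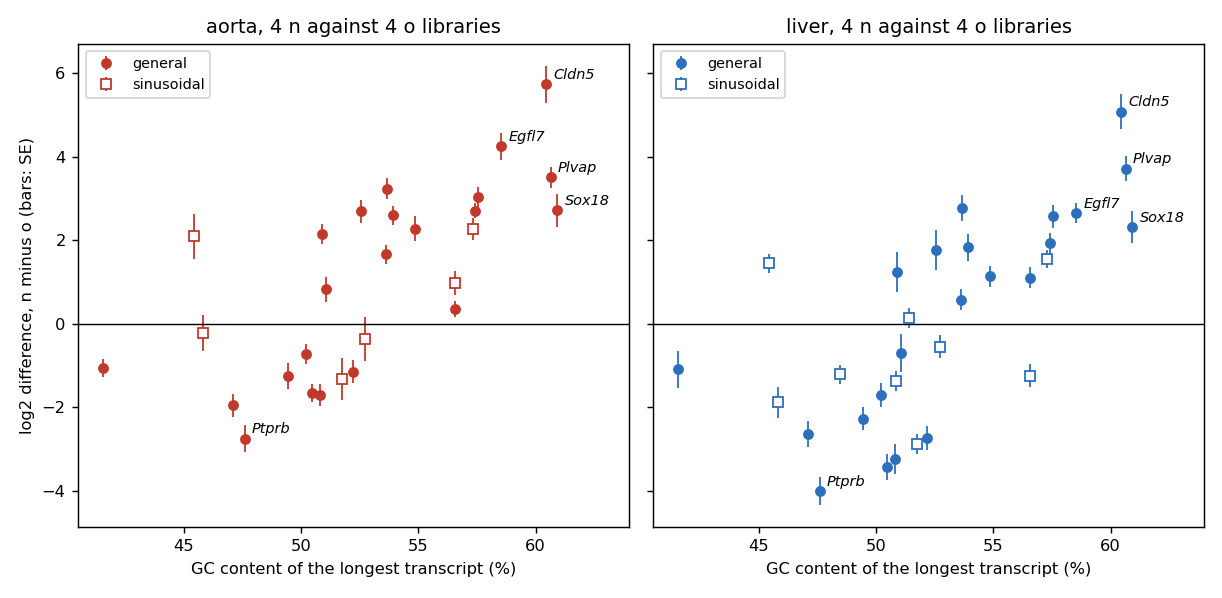
Difference between n and o libraries (y axis, log2, bars are standard errors) against the GC content of each member's longest transcript (x axis, percent), in aorta (left, 28 members) and liver (right, 31 members). Filled circles are general and open squares sinusoidal members. Ptprb (-2.75 and -4.01) is the lowest point and Cldn5 (5.73 and 5.08) the highest.

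The n-minus-o difference was itself compared between the tissues, a comparison added after the data were seen. Of the 31 members 11 were called, all with a more positive difference in aorta, from Mmrn2 (1.09) to Flt4 (2.25), and 6 to 14 as single libraries were left out (fewest without vehicle liver n1, E2 liver o2, vehicle aorta n1 or E2 aorta n1, and 7 without E2 liver n2). The background was 27.8% of 14190 genes called, 18.8% in that direction and 8.96% in the other. Under the other normalization of edgeR, RLE, the median over all genes moved from 0.41 to 0.14, the share of higher calls among all calls from 67.7% to 51.3%, and 5 members were called (Cdh5, Flt1, Erg, Egfl7, Flt4).

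E2 left no member called in aorta. Of 28 members with enough counts, 0 passed an adjusted p of 0.05 in the edgeR quasi-likelihood test, Benjamini-Hochberg adjusted, 3 had an unadjusted p under 0.05, and 9 were higher and 19 lower with E2. Over all 13698 genes 0% were called, 495 had an unadjusted p under 0.05 and 48.7% were higher. The median log2 difference was -0.078 over the members and -0.0083 over all genes, with a range from -1.21 to 0.95 among members. With the ending as a replicate block, 12 genes (0.0876%) were called and no member was among them. DESeq2 called 20 genes higher and 4 lower, and again no member. No member had its 4 E2 aortas all above or all below the 4 vehicle aortas, which 0.388% of 14190 genes did, nor in liver, where 0.486% did.

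Sox18, a SOX factor of vascular and lymphatic development, had the smallest p. It measured 5.62 (o1), 1.5 (o2), 13.4 (n1) and 21.8 (n2) CPM with vehicle and 6.81, 2.89, 44.6 and 37.6 CPM with E2. Each E2 library exceeded the vehicle library of the same ending, and the groups overlapped with o libraries low in both. The log2 difference was 0.95 ± 0.25 (SE; unadjusted p = 0.00436, adjusted p = 1.000, and 0.259 with the block, edgeR's quasi-likelihood test).

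Cldn5 went the other way, with 5.28, 1.55, 143 and 211 CPM for vehicle and 3.03, 0.898, 74.6 and 124 CPM for E2. It was lower in 4 of 4 pairs of libraries with the same ending. The log2 difference was -0.84 ± 0.23 (SE; unadjusted p = 0.00590, adjusted p = 1.000, and 0.0920 with the block, edgeR's quasi-likelihood test). Sox17, a SOX factor of arterial endothelium, measured 2.38, 1.80, 12.6 and 15.6 CPM with vehicle and 1.36, 1.48, 9.09 and 11.5 CPM with E2, and its log2 difference was -0.49 ± 0.24 (SE), lower in 4 of 4 pairs.

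The junction genes Pecam1 and Cdh5 and the receptor gene Kdr differed by less than their standard errors. Pecam1 measured 234, 332, 226 and 173 CPM with vehicle and 243, 378, 204 and 183 CPM with E2, a log2 difference of 0.023 ± 0.16 (SE). Cdh5 measured 360.1, 198, 183 and 76.8 and 297, 219, 138 and 119.8 CPM (-0.054 ± 0.25), and Kdr 45.1, 40.2, 25.7 and 12.6 and 28.7, 58.8, 26.0 and 15.3 CPM (0.024 ± 0.29). For these 3 genes the endings disagreed in sign and the groups overlapped. Leaving out 1 library at a time gave -0.026 to 0.15 for Pecam1, -0.25 to 0.26 for Cdh5 and -0.16 to 0.27 for Kdr.

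Apart from Stab1, the sinusoidal members were low in aorta. All 6 that could be tested were lower with E2, none called, with a median of -0.54. Stab2 measured 2.89, 4.03, 0.757 and 3.53 CPM with vehicle and 2.42, 1.86, 0.578 and 0.711 CPM with E2, a log2 difference of -1.21 ± 0.52 (SE; unadjusted p = 0.0433, adjusted p = 1.000, edgeR's quasi-likelihood test), from -1.49 to -0.56 as single libraries were left out, the smallest difference being the one without vehicle aorta n2. Clec4g, Oit3 and Dnase1l3 had too few counts to test: over 4 libraries Clec4g had 18 counts with vehicle and 7 with E2, Oit3 24 and 20, and Dnase1l3 39 and 9. In E2 aorta o2, Clec4g and Dnase1l3 had 0 counts, which allows up to 0.182 CPM of gene counts (3 counts, counting error only). Of 7 tested hepatocyte genes none was called for E2 in aorta (smallest adjusted p 0.517, edgeR quasi-likelihood test, Benjamini-Hochberg adjusted). All 7 log2 differences were below 0 (median -0.86), though in the o1 pair 2 were higher with E2, and their 10-gene sum was 105 to 615 CPM with vehicle and 65.0 to 395 with E2. Of 8 lymphocyte markers none was called either (median -1.17). Their median pair difference was 0.36 (o1), -0.77 (o2), 0.49 (n1) and -2.67 (n2), and their sum was 148 CPM in vehicle aorta n2 and 8.34 to 31.5 in the other vehicle aortas. Their part in the sinusoidal values was not tested.

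In liver no member was called for E2 either. All 31 were tested, 0 passed, and 1 had an unadjusted p under 0.05, with a smallest adjusted p of 0.939 in the edgeR quasi-likelihood test, Benjamini-Hochberg adjusted. Background calls were 0% of 11726 genes, of which 502 had an unadjusted p under 0.05. 24 members were lower and 7 higher with E2, with a median of -0.22 against -0.0053 over all genes. Every sinusoidal member was lower, from -0.034 (Dnase1l3) to -0.58 (Fcgr2b).

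In liver the ending was not taken to pair samples, so a pair there means only libraries with the same ending. Fcgr2b measured 26.2 (o1), 31.5 (o2), 85.0 (n1) and 95.5 (n2) CPM with vehicle and 21.0, 20.9, 61.2 and 50.4 CPM with E2, lower in 4 of 4 pairs. Its log2 difference was -0.58 ± 0.20 (SE; unadjusted p = 0.0118, adjusted p = 0.939, edgeR's quasi-likelihood test). Gpr182 measured 144, 201, 151 and 165 CPM with vehicle and 135, 171, 57.3 and 114 CPM with E2, lower in 4 of 4 pairs, with a difference of -0.51 ± 0.25 (SE). The n1 pair had the widest gap, and without E2 liver n1 the difference was -0.25.

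Pecam1 measured 101, 184, 45.2 and 69.5 CPM in vehicle liver and 104, 165, 47.7 and 22.0 CPM in E2 liver. Cdh5 measured 203, 252, 29.5 and 53.5 and 209, 196, 39.0 and 16.6 CPM, and Kdr 235, 281, 52.6 and 84.7 and 229, 251, 62.2 and 24.7 CPM. In each of the 3 the E2 n2 library was the lowest of its group, well under the vehicle library of the same ending. The log2 differences were -0.38 ± 0.25, -0.35 ± 0.26 and -0.37 ± 0.26 (SE), none called.

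Among general members the lean towards lower values in liver rested on that 1 pair. The median difference over all members, log2(CPM + 1) of E2 minus vehicle, was -0.022 in the o1 pair, 0.11 in o2, -0.067 in n1 and -0.76 in n2, where 2 of 31 members were higher. Over all genes tested it was 0.0077, -0.037, 0.15 and -0.22 in the same order. General members had medians of -0.0077, 0.12, 0.020 and -0.84, and sinusoidal members -0.098, 0.017, -0.16 and -0.56. Stab1 was lower with E2 in 4 of 4 pairs, as were Fcgr2b and Gpr182. The E2 liver n2 library had the fewest counts, and its deviation from the mean of the 4 liver n libraries fell with transcript length (Spearman's rho -0.435 over 11671 genes, -0.472 over the 31 members). Over all genes rho was 0.333 in vehicle liver n1, 0.347 in vehicle liver n2 and -0.053 in E2 liver n1. The 4 libraries share that mean, so a trend in any of them shifts the others, and these values are not separate evidence. Length trends also occurred among aorta n libraries, against their own mean. There rho was 0.426 (vehicle n1), -0.431 (vehicle n2), 0.455 (E2 n1) and -0.218 (E2 n2). The fitted E2 difference in liver also fell with transcript length (Spearman's rho -0.415 over the 31 members, -0.292 over all genes). It rose with GC content (0.463 and 0.151). Without both n2 libraries the log2 differences were -0.030 for Pecam1, 0.0039 for Cdh5 and -6.64e-05 for Kdr, and the medians 0.032 over general and -0.043 over sinusoidal members. Fcgr2b kept -0.48 and Gpr182 -0.58. Of 14 macrophage markers, several of which liver endothelium shares, none was called (median -0.38). Their median pair difference was -0.17 (o1), -0.19 (o2), 0.023 (n1) and -0.90 (n2), so that the n2 pair stood apart here too, and their sum was 525 to 1784 CPM with vehicle and 457 to 1409.6 with E2. Their part in the Fcgr2b value was not tested.

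**Figure D4:**
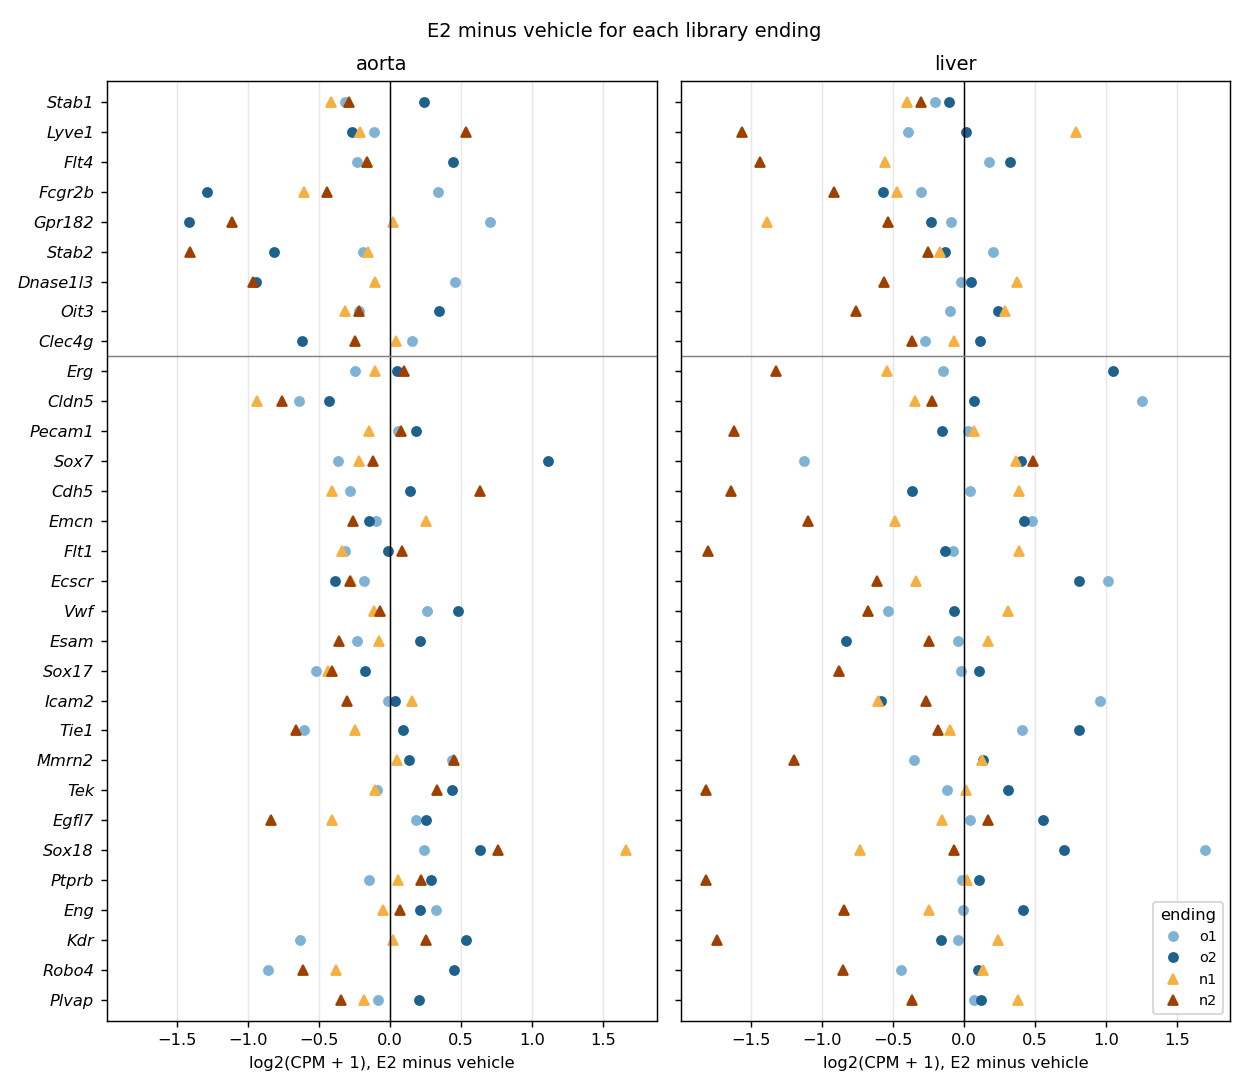
Log2(CPM + 1) of each E2 library minus that of the vehicle library with the same ending (x axis), 1 row per member and 1 symbol per ending, in aorta (left) and liver (right). The liver n2 symbols lie left of 0 for 29 of 31 members, and in aorta Sox18 lies right of 0 and Cldn5 left of 0 at all 4 endings.

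The E2 effect was compared between aorta and liver over all 16 libraries. Of 31 members 0 were called, against 0% of 14190 genes (1 gene, 0.00705%, and no member with the replicate block), and 2 had an unadjusted p under 0.05. Clec4g, Oit3 and Dnase1l3, too low to test in aorta, passed the count filter here only through their liver counts. Their values say little about an E2 effect in aorta. The difference, aorta minus liver, was -2.12 ± 0.87 (SE) for Dnase1l3, which rests on 39 and 9 aortic counts, and -1.09 ± 0.47 for Stab2. Without vehicle aorta n2 these were -1.23 and -0.50. Sox18 differed by 0.60 ± 0.48, Cldn5 by -0.80 ± 0.42 and Tie1 by -0.61 ± 0.32, and the smallest adjusted p among members was 0.875 (edgeR quasi-likelihood test, Benjamini-Hochberg adjusted). A difference in E2 effect between the tissues was not shown for any member.

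Further endothelial genes, listed by vessel type, set the members in context. They are counted against the 24.1% of all genes called higher and 23.4% called lower in vehicle aorta. Of 10 arterial genes 9 were called higher in vehicle aorta (median 2.20), among them Fbln5 (2.98), an elastic fibre protein also made by other vessel wall cells, and Hey2 (3.54), a Notch target. Of 6 tested venous genes 1 was higher and 4 were lower, with Rspo3 (-2.70), a Wnt amplifier of central veins, and Vcam1 (2.52), a leukocyte adhesion molecule, on opposite sides. Of 8 capillary genes 5 were higher and 2 lower, Fabp4 (4.08) and Gpihbp1 (-2.81) being examples, and Fabp4 is a fat cell gene too. Of 6 tested lymphatic genes 4 were higher and 2 lower, and the lower ones were Prox1 (-5.68), which hepatocytes also make, and Reln (-5.97), which stellate cells make. Of 19 other sinusoidal genes 13 were lower and 1 higher (median -2.51), led by Clec4f (-9.94), a Kupffer cell lectin, and F8 (-5.07), coagulation factor VIII.

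Among 12 tested ligands and coreceptors of the endothelial pathways 3 were called higher in vehicle aorta and 4 lower. Pgf, a ligand of Flt1, differed by 6.29, Angpt2, a ligand of Tek, by 2.51, and Bmp9, a liver-made ligand that binds Eng, by -6.99. A further 30 tested general endothelial genes split into 11 higher, Thbd (4.39) and Mcam (2.86) among them, and 7 lower, with Nostrin at -3.31. None of the genes of these 7 lists was called for E2 in aorta, in liver or in the difference between them. In aorta Edn1, the endothelin-1 precursor, had a log2 difference of 0.74 ± 0.27 (SE) and Procr, the protein C receptor, of -0.60 ± 0.18, both short of the adjusted threshold.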

How the data were processed

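RNA sequencing of 16 libraries was deposited as 1 table of raw reads per gene symbol, with no value per animal. The submitters' processing notes name Bowtie 0.12.5, HTSeq 0.4.5p7, edgeR 3.4.2 and the build mm9. Which annotation, strand setting and filters were used is not given in the sources used here. In the deposited table expected counts was taken as the unit, but gene rows are whole numbers, and 8 closing lines (reads in no gene, ambiguous reads, totals) were left out of library sizes and tests.

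Columns were mapped to groups by name. Tests used edgeR 4.0.16 (R 4.3.3): TMM scaling, filterByExpr with a minimum count of 10, dispersion by estimateDisp, and the quasi-likelihood F test, with o1, o2 and n as a 3-level covariate and Benjamini-Hochberg adjustment over all genes tested. The 3 levels assume that o1 and o2 are the Ovation libraries, on different instruments, which the labels do not state. The comparison of o with n libraries had treatment as covariate. CPM used TMM sizes over all 16 libraries. Transcript length and GC content came from the longest GENCODE M21 transcript of each symbol (98.4% of genes, all members), for names, lengths and composition only, since that annotation is of GRCm38. Tests were tried on simulated counts. Alternatives used DESeq2 1.42.0, limma 3.58.1 and mgcv 1.9.3. The members and lists were chosen with earlier results of these data known. Values in every library are given for members called for E2, the 4 with the smallest p for E2 in each tissue with Pecam1, Cdh5 and Kdr, the 4 most aortic, every sinusoidal member and those too low to test. For genes of the context lists only fitted differences are given, for some of those with the smallest p.

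With the mean of group and letter removed, libraries of the same ending correlated at 0.506 (o) and 0.433 (n) in aorta and at 0.298 and -0.0511 in liver. The ending was therefore taken to pair libraries in aorta only, from the data and not from the labels. The main tests kept n1 and n2 in the same covariate level and did not use that pairing. The replicate block did.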

Additional observations from a re-analysis of the deposited data

Results flagged for a closer look

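A sample far from the rest of its group was found in 2 of 124 groups of 4 libraries (31 members in 4 groups). Each group mixes o and n libraries, which differed for most members. The chance rate of 1 in 20 therefore does not apply, and a far library is hard to flag. The low number does not show that no library stood apart. Mmrn2, an extracellular matrix protein of vessels, measured 52.9 CPM in E2 liver n1 and 27.4, 30.5 and 27.7 CPM in the other E2 livers. Oit3 measured 0.642 CPM in E2 aorta o2, 10 counts, and 0.151, 0.154 and 0.198 CPM in the other E2 aortas.

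The n-minus-o difference was more positive in aorta than in liver for 11 members by an interaction test (edgeR's quasi-likelihood test). On the log2 scale the difference between tissues was Flt4 2.25, Flt1 1.78, Lyve1 1.72, Egfl7 1.63, Cdh5 1.59, Stab2 1.58, Erg 1.57, Sox7 1.53, Ptprb 1.30, Robo4 1.17 and Mmrn2 1.09. The adjusted p ran from 8.27e-04 to 0.0352. Over all 14190 genes the median was 0.41, and 27.8% were called, 18.8% in this direction. With RLE normalization 5 members were called, and 6 to 14 with single libraries left out. The Lyve1 call was lost in 9 of the 16 such fits.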

How the results depend on the processing

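No member was called for E2 in aorta, in liver or in the difference under any setting run: edgeR without the covariate, with RLE, with no low-count filter, with the replicate block, with o or n libraries alone, with a length and GC correction, without n2 libraries, or with each library left out, DESeq2 and limma voom. Counts over all genes moved more, from 0 in either direction. For E2 in aorta, DESeq2 called 20 higher and 4 lower, the replicate block 11 and 1, o libraries alone 16 and 17, libraries without n2 (added after seeing the data) 24 and 11, the length and GC correction 3 higher, and leaving out single libraries 0 to 12 and 0 to 5. In liver 4 and 2 were called with no low-count filter, 3 and 2 in o libraries, 1 higher in n libraries and 0 to 1 higher without single libraries. For the difference between tissues DESeq2 called 6 and 6, the block 1 lower, o libraries 2 lower, the length and GC correction 1 lower, libraries without n2 1 lower, and single libraries left out 0 to 4 lower. The sinusoidal median for E2 in aorta became -0.84 with no filter, where 9 genes were tested (-0.84 to -0.34 without single libraries), and the difference between tissues -0.88 in o libraries (-0.57 to -0.091). Values near 0 changed sign. In aorta Cdh5 was 0.00546 with the block and 0.00412 by limma voom, Kdr -0.020 in o libraries and -0.048 with the correction, and Pecam1 -0.049 in n libraries and -0.025 with the correction. Without single libraries Pecam1 ran from -0.026 to 0.15, Cdh5 from -0.25 to 0.26 and Kdr from -0.16 to 0.27. In liver Cdh5 was 0.00387 without n2, and the differences for Cdh5 and Kdr became -0.20 and -0.024.

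Between tissues, leaving out the covariate gave 1072 genes higher and 1375 lower with vehicle (0 and 9 members) and 1217 and 1438 with E2 (0 and 8 members). A log2 threshold of 2 gave 1450 and 1754 genes with vehicle and 2 members higher. With E2, 3 members were higher with the block and 3 in o libraries, where the general median was -0.64. Without single libraries, members higher and lower were 3 to 5 and 14 to 16 with vehicle and 3 to 6 and 13 to 15 with E2, and genes 2726 to 3355 and 2546 to 2996, 2456 to 3611 and 2344 to 3126. The block changed no other call of a member than those given for Sox7, Cdh5, Vwf and Emcn. For the n-minus-o difference between tissues, DESeq2 called 7 members higher and 2060 genes lower, RLE 5 members, and single libraries left out 6 to 14. Emcn there was -0.21 by DESeq2, -0.21 with RLE and -0.051 with no filter, and without single libraries Emcn ran from -0.30 to 0.46 and Plvap from -0.36 to 0.15. Over the shortest listed transcript, some of which are fragments, Pecam1 measured 237 CPM per kilobase in vehicle aorta. The cause of these changes was not tested. Depth limits Clec4g, Oit3 and Dnase1l3 in aorta. With 4 libraries a group, even E2 differences of several standard errors went uncalled, such as those of Sox18 (0.95 ± 0.25, SE) and Cldn5 (-0.84 ± 0.23) in aorta.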
